A study of Homo sapiens with 6 samples.

Results

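The genes described here are *CTGF*, *CYR61* and 8 further genes of the Hippo pathway: the transcriptional targets *ANKRD1* and *AMOTL2*, the coactivators *YAP1* and *WWTR1*, the DNA-binding factors *TEAD1* and *TEAD4*, and the Hippo components *LATS2* and *AJUBA*. They were taken by symbol, 10 of the 17471 genes listed, and were chosen by their pathway role and on the known shPAX2 minus shEV differences in TPM. For that reason the difference between the groups in these 10 genes is a description without p-values, and how many of them passed the fit over all genes is set only beside the share of all genes that did. RNA-seq was performed in AN3CA, an established human endometrial cancer line that the labels give as epithelial cells from uterus, grown in MEM and selected with puromycin after transduction. The 3 shEV libraries came from cells with an empty hairpin vector, as the labels give it. The study's methods also name an empty vector, whereas its results and figure legends call the AN3CA control scrambled. The 3 shPAX2 libraries came from cells with 1 short hairpin RNA against *PAX2*, a developmental transcription factor. The design addresses which transcripts differ when *PAX2* is knocked down. With 1 hairpin, loss of *PAX2*, other effects of the hairpin and differences between the transduced populations cannot be told apart. Both arms were transduced and selected. The labels do not say whether the replicates were separate cultures, so p-values measure only the spread between these libraries, which may be technical.

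The Hippo pathway restrains growth through a kinase cascade. MST kinases activate LATS kinases, and LATS kinases phosphorylate the coactivators YAP and TAZ (encoded by *YAP1* and *WWTR1*), which are then kept out of the nucleus or degraded. Coactivators that escape phosphorylation enter the nucleus, bind TEAD factors and raise transcription of genes such as *CTGF*, *CYR61* and *ANKRD1*, which are widely used as readouts of the pathway, and of *LATS2* and *AMOTL2*, whose products restrain YAP in turn. Phosphorylation and localization of YAP and TAZ are not seen by RNA-seq.

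*PAX2* was examined first. Its level, given as for every gene below in the order of replicates 1 to 3, was 4.03, 3.66 and 2.74 TPM (reads divided by gene length and scaled to a fixed total per library) in the shEV libraries, and 0.916, 0.723 and 1.17 TPM in the shPAX2 libraries. The shPAX2 mean was 26.9% of the shEV mean, with a log2 fold change of -1.47 (SE 0.18) and an adjusted p of 0.000294 in limma. In an exact two-sided permutation test 3 against 3 libraries cannot give a p below 0.1. Libraries held 10730909 to 18221859 reads in shEV and 19422615 to 29405787 reads in shPAX2, so depth and group cannot be told apart. Of 8 listed epithelial markers, 7 (*EPCAM*, *CDH1*, *KRT8*, *KRT7*, *KRT19*, *CLDN4* and *ESRP1*) were under 0.5 TPM in every library and only *KRT18* was above it, at 10.2 to 17.5 TPM, so the labelled epithelial identity rested on *KRT18* alone. Of 5 listed fibroblast or stromal markers, 4 reached 0.5 TPM in a library. The summed level of the 5, was 850 to 888 TPM in shEV and 597 to 689 TPM in shPAX2. Most of it came from the collagen genes *COL1A2*, at a mean of 836 TPM in shEV and 390 TPM in shPAX2, and *COL3A1*, which went the other way, at 35.1 and 242 TPM. The part of these genes in the results below was not tested. The endothelial markers *CDH5* and *TEK* stayed under 0.5 TPM in every library, as did the immune markers *PTPRC* and *CD14*, while *CD68* stood at 0.835 to 1.52 TPM in shEV and 1.58 to 2.28 TPM in shPAX2.

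*CTGF* (also named *CCN2*), a secreted matricellular protein that binds integrins and growth factors, was low in every shPAX2 library. The gene spans 132269316 to 132272512 of chromosome 6 (GRCh37, minus strand). Its level was 25.4, 15.7 and 12.9 TPM in the shEV libraries, from 320, 326 and 273 reads. In the shPAX2 libraries it was 0.112, 0.538 and 0.481 TPM, from 4, 17 and 11 reads. Every shEV library thus held many times the level of every shPAX2 library, and the groups did not overlap. The shEV mean of 18.0 ± 6.57 TPM compared with a shPAX2 mean of 0.377 ± 0.232 TPM (SD, n = 3), which is 47.8-fold lower and leaves 2.09% of the shEV mean. On the log2(TPM + 0.5) scale the fold change was -4.38 (SE 0.30), the fifth lowest of the 13163 genes tested. The estimate ran from -5.71 with voom on recovered reads to -3.75 with a pseudocount of 1. The lowest library, shPAX2 replicate 1, had a 95% Poisson interval of 0.0304 to 0.286 TPM, which covers counting error only. The filter on low values asked for 0.5 TPM in at least 3 libraries, which *CTGF* reached in all 3 shEV libraries and in 1 shPAX2 library. As these are bulk samples, fewer cells that express a gene and less RNA per cell cannot be told apart.

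*CYR61* (also named *CCN1*), the closest relative of *CTGF* among the classical targets and likewise a secreted matricellular protein, did not share this pattern. The gene spans 86046444 to 86050272 of chromosome 1 (GRCh37, plus strand). Its level was 16.9, 9.33 and 11.3 TPM in the shEV libraries and 15.0, 33.2 and 31.4 TPM in the shPAX2 libraries. Replicates 2 and 3 of shPAX2 lay above every shEV library, whereas shPAX2 replicate 1 lay within the shEV range, so the groups overlapped. The means were 12.5 ± 3.92 TPM (shEV) and 26.5 ± 10.0 TPM (shPAX2, SD, n = 3). The log2 fold change was 1.01 (SE 0.41), and 1.37 without shPAX2 replicate 1. The reads behind *CYR61* numbered 189 to 235 in shEV and 527 to 1025 in shPAX2.

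The order of *CTGF* and *CYR61* differed between the groups. The ratio of *CYR61* to *CTGF*, taken per length, was 0.664, 0.592 and 0.880 in the shEV libraries. It was 135, 61.6 and 65.2 in the shPAX2 libraries. The ratio is free of library scaling, and no shPAX2 value came near a shEV value. The sum of both genes ran from 24.3 to 42.3 TPM in shEV and from 15.1 to 33.7 TPM in shPAX2, and these ranges overlapped.

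**Figure D1:**
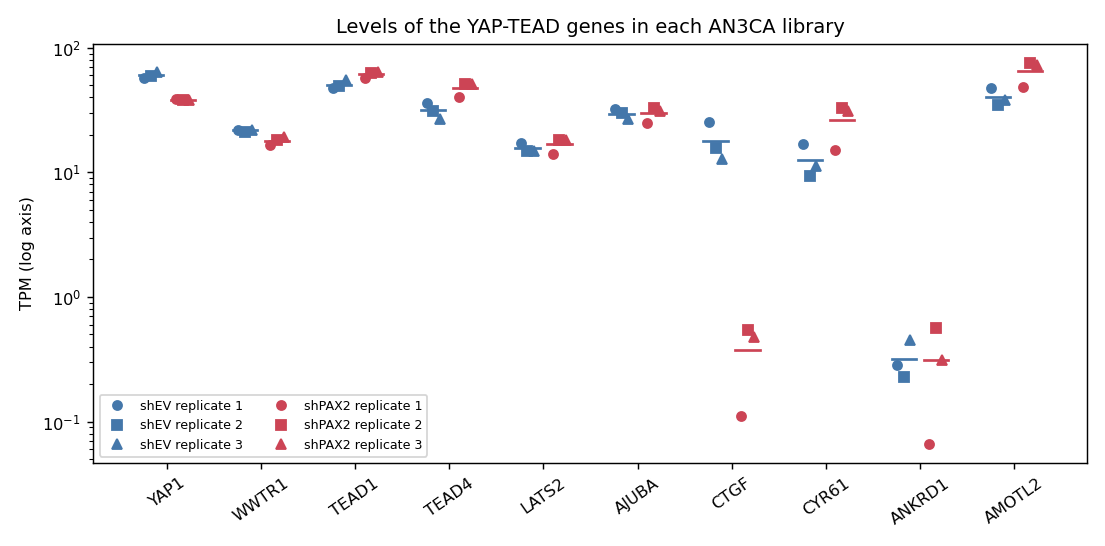
Level of each of the 10 genes in every library, in TPM on a log axis, with 1 symbol per replicate number and a line at the group mean (shEV and shPAX2, n = 3 each). *CTGF* separated the groups by the widest margin, at 12.9 to 25.4 TPM in shEV and 0.112 to 0.538 TPM in shPAX2, whereas *ANKRD1* was low in both groups and *CYR61*, *LATS2* and *AJUBA* overlapped.

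The start regions of these genes were examined because TEAD factors bind the letters GGAATG, or CATTCC on the other strand. Promoter sequences (250 bases before to 50 after an annotated start) were taken from RefSeq on GRCh38.p14 and matched 7 of the 10 genes, with 10 promoters. *CYR61*, *TEAD1* and *TEAD4* had no entry. Promoters are shown for *CTGF*, *ANKRD1* and *AMOTL2*, since these are targets used as readouts or described beside them, each 5′ to 3′ on the gene's own strand with the motif in capitals. *CTGF* is from chr6:131951323-131951622 (minus strand), *ANKRD1* from chr10:90921038-90921337 (minus strand), and *AMOTL2* from chr3:134374398-134374697 (minus strand), which is the 1 of its 2 promoters that holds a match.
CTGF: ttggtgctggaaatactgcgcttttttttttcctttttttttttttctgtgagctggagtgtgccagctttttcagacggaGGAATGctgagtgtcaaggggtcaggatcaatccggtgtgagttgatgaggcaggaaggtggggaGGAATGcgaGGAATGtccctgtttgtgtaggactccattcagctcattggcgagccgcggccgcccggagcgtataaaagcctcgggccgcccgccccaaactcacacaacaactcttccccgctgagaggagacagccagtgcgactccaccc
ANKRD1: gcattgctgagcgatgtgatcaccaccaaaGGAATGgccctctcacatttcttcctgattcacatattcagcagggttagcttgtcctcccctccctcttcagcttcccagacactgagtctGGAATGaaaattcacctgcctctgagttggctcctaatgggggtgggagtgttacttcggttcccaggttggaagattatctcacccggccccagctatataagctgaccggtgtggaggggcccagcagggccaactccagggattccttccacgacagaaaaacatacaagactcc
AMOTL2: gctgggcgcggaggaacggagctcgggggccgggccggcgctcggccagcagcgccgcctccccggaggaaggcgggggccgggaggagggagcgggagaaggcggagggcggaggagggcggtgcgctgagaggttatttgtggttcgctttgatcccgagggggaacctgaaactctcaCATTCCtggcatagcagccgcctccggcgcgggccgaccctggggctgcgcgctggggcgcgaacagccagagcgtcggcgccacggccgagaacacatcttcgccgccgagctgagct

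*CTGF* held 3 matches, which began 169, 104 and 95 bases before the start, and *ANKRD1* held 2, at 220 and 128 bases before it. *AMOTL2* held 1 match, on the opposite strand, 69 bases before the start. Single matches were also present in *YAP1* (162 bases before the start), in 1 promoter of *AJUBA* (59 bases before it) and in *LATS2* (9 bases after it), and neither promoter of *WWTR1* held one. Of 35116 human promoters of the same length, 14% held at least 1 match on either strand, 1.37% at least 2 and 0.128% at least 3. Matches are a description of the sequence and not of binding. *CTGF*, with 3 matches, and *ANKRD1*, with 2, differed in level by more than an order of magnitude in shEV. For AP-1 the pattern TGANTCA was searched on both strands, with any base allowed at N. It was found in *ANKRD1* alone, in the form TGATTCA, and in 7.71% of all promoters. The CArG box bound by SRF was found in none of the 10 promoters and in 1.29% of all.

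*ANKRD1*, a nuclear ankyrin-repeat protein of stretched muscle and a common YAP readout, was hardly expressed in AN3CA. The gene spans 92671853 to 92680844 of chromosome 10 (GRCh37, minus strand). Its level was 0.283, 0.229 and 0.449 TPM in the shEV libraries, from 3, 4 and 8 reads, and 0.0662, 0.564 and 0.311 TPM in the shPAX2 libraries, from 2, 15 and 6 reads. The lowest and the highest library were both shPAX2, so the groups overlapped. It missed the filter and is the 1 gene of the 10 that was not tested. A difference in *ANKRD1* was not detectable at this depth.

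*AMOTL2*, an angiomotin-family protein that holds YAP at junctions and is itself a YAP target, was higher in shPAX2. The gene spans 134074189 to 134094321 of chromosome 3 (GRCh37, minus strand). Its level was 47.5, 35.1 and 37.9 TPM in the shEV libraries and 48.5, 75.5 and 73.1 TPM in the shPAX2 libraries. The groups did not overlap, but shPAX2 replicate 1 stood just above shEV replicate 1. The log2 fold change was 0.69 (SE 0.21), and 0.89 without shPAX2 replicate 1. *AMOTL2* and *CYR61* thus had the same order of libraries within shPAX2, and so did *CTGF*, *ANKRD1*, *AJUBA* and *TEAD4*.

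The coactivators were both lower in shPAX2. *YAP1*, the principal effector of the pathway, spans 101981178 to 102104155 of chromosome 11 (GRCh37, plus strand). Its level was 57.6, 58.9 and 63.8 TPM in the shEV libraries and 38.9, 38.4 and 37.9 TPM in the shPAX2 libraries. The shPAX2 libraries had an SD of 0.508 TPM and lay far below the shEV range. The shPAX2 mean was 63.9% of the shEV mean, and the log2 fold change was -0.64 (SE 0.06). On the log2(TPM + 0.5) scale *YAP1* was the steadiest of the 10 genes within shPAX2, with an SD of 0.0188.

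*WWTR1*, which encodes TAZ, spans 149235022 to 149454501 of chromosome 3 (GRCh37, minus strand) and overlaps the listed antisense gene *WWTR1-AS1*. Its level was 22.0, 21.3 and 21.8 TPM in the shEV libraries and 16.5, 18.3 and 19.3 TPM in the shPAX2 libraries. The groups did not overlap, with a gap of a few TPM. The log2 fold change was -0.27 (SE 0.07) and moved to -0.16 with median-of-ratios scaling and -0.14 with quantile normalization. The scaling matters for a difference of this size, since the median log2 fold change of all genes tested was -0.10 on the TPM scale and 0.0053 with median-of-ratios scaling.

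The summed transcript level of the coactivator genes was lower in shPAX2. *YAP1* plus *WWTR1* was 79.7, 80.2 and 85.6 TPM in the shEV libraries and 55.4, 56.6 and 57.2 TPM in the shPAX2 libraries. The groups did not overlap, and with median-of-ratios scaling they stood at 76.2 to 81.3 against 58.0 to 59.6. The ratio of *YAP1* to *WWTR1* was 2.61, 2.77 and 2.92 in shEV and 2.36, 2.10 and 1.97 in shPAX2, so *YAP1* was the more abundant coactivator in every library and less so in shPAX2.

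*TEAD1* and *TEAD4*, DNA-binding partners of both coactivators, were higher in shPAX2. *TEAD1* spans 12695968 to 12966284 of chromosome 11 (GRCh37, plus strand). Its level was 47.4, 49.3 and 55.2 TPM in the shEV libraries and 57.2, 62.7 and 63.8 TPM in the shPAX2 libraries. The highest shEV library lay just under the lowest shPAX2 library. *TEAD1* had a log2 fold change of 0.27 (SE 0.07).

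*TEAD4* spans 3068496 to 3149842 of chromosome 12 (GRCh37, plus strand). Its level was 36.4, 31.4 and 26.6 TPM in the shEV libraries and 40.1, 51.6 and 51.4 TPM in the shPAX2 libraries. The groups did not overlap, and shPAX2 replicate 1 was again the library nearest to shEV. *TEAD4* had a log2 fold change of 0.59 (SE 0.14), and 0.71 without that library.

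*TEAD2* was the most abundant TEAD in AN3CA, and it moved the other way. Its level was 172, 196 and 200 TPM in the shEV libraries and 133, 129 and 125 TPM in the shPAX2 libraries. It fell by 0.55 on the log2 scale (SE 0.07, adjusted p = 0.000381 in limma), and the groups did not overlap. *TEAD3* stood at 12.8 ± 0.471 TPM (shEV) and 12.2 ± 0.135 TPM (shPAX2, SD, n = 3) and did not pass the test (adjusted p = 0.429 in limma). The sum of the 4 TEAD genes was 268 to 295 TPM in shEV and 242 to 256 TPM in shPAX2, without overlap on the TPM scale, but the ranges overlapped with median-of-ratios scaling. *TEAD4* made up 13.6%, 10.9% and 9.04% of that sum in the shEV libraries and 16.6%, 20.2% and 20.3% in the shPAX2 libraries. A larger share of TEAD transcripts was thus *TEAD4* in every shPAX2 library. *VGLL4*, a TEAD-binding protein that competes with YAP, went from 18.3 ± 1.54 to 8.77 ± 0.582 TPM (SD, n = 3), with a log2 fold change of -1.02 (SE 0.09, adjusted p = 3.57e-05 in limma). These 2 were the genes that passed among the 3 tested of a list of 6 other TEAD and VGLL genes, both lower (30.5% of all genes tested passed as lower), and the median log2 fold change of the 3 was -0.55.

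*LATS2*, a LATS kinase that phosphorylates YAP and TAZ, and *AJUBA*, a LIM-domain scaffold that inhibits LATS kinases, differed little. *LATS2* spans 21547175 to 21635725 of chromosome 13 (GRCh37, minus strand). Its level was 17.3, 14.9 and 14.9 TPM in the shEV libraries and 14.1, 18.0 and 18.2 TPM in the shPAX2 libraries. The lowest and the highest libraries were both shPAX2, and the log2 fold change was 0.08 (SE 0.11).

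*AJUBA* spans 23440386 to 23451760 of chromosome 14 (GRCh37, minus strand). Its level was 32.3, 29.8 and 26.8 TPM in the shEV libraries and 25.0, 33.1 and 31.3 TPM in the shPAX2 libraries. The groups overlapped over most of their range. The log2 fold change was 0.0047 (SE 0.11), and it ran from -0.07 without shPAX2 replicate 2 to 0.12 without shPAX2 replicate 1, so *AJUBA* had no stable direction.

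The counts over the 10 genes followed from these values. An adjusted p under 0.05 and a fold of at least 2 were reached by *CTGF* alone of the 9 tested, against 4.54% of all genes tested (1.43% higher and 3.11% lower in shPAX2). Without the fold threshold, 6 genes reached an adjusted p under 0.05, 3 higher (*AMOTL2*, *TEAD1* and *TEAD4*) and 3 lower (*CTGF*, *YAP1* and *WWTR1*), against 42.8% of all genes tested (12.2% higher and 30.5% lower). The same 6 genes had groups that did not overlap, against 54.9% of all genes tested (15.9% higher and 39% lower). Since the genes were chosen with this contrast known, nothing is read from these counts. Lower genes made up 68.6% of all calls past both thresholds on the TPM scale, 60.0% with median-of-ratios scaling and 55.0% with quantile normalization.

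The order of the 10 genes by level changed with the group. In shEV the means per length ran from *YAP1* (60.1 TPM) through *TEAD1* (50.6), *AMOTL2* (40.1), *TEAD4* (31.5), *AJUBA* (29.6), *WWTR1* (21.7), *CTGF* (18.0), *LATS2* (15.7) and *CYR61* (12.5) to *ANKRD1* (0.320). Only the steps from *YAP1* to *TEAD1*, from *AJUBA* to *WWTR1* and from *CYR61* to *ANKRD1* separated neighbours beyond their range. In shPAX2 the order was *AMOTL2* (65.7 TPM), *TEAD1* (61.2), *TEAD4* (47.7), *YAP1* (38.4), *AJUBA* (29.8), *CYR61* (26.5), *WWTR1* (18.0), *LATS2* (16.8), *CTGF* (0.377) and *ANKRD1* (0.314). Here the steps between *TEAD1*, *TEAD4*, *YAP1* and *AJUBA*, and the step from *LATS2* to *CTGF*, exceeded the range of the neighbours. *YAP1* was the highest in shEV and stood below 3 of the other genes in shPAX2, and *CTGF* stood between *WWTR1* and *LATS2* in shEV and next to *ANKRD1* in shPAX2.

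The libraries of a group did not behave alike in these genes. Of the 10 genes, 9 were lowest in replicate 1 among the shPAX2 libraries, against 43% of all genes tested, and *YAP1* was the exception. Among the shEV libraries, 7 of the 10 were highest in replicate 1, against 38% of all genes tested. Replicate 1 of shPAX2 was the deepest library and replicate 1 of shEV the shallowest, and the part of depth was not tested. Without shPAX2 replicate 1 the log2 fold change of *CTGF* was -4.14.

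The remainder of the pathway was then described from lists of other genes, for which adjusted p-values over all genes tested are given. The core Hippo kinase list (kinases, adaptors and upstream regulators) had 17 of 18 genes tested, and past the test 5 stood higher and 6 lower, against 12.2% and 30.5% of all genes tested. Its median log2 fold change was -0.07, against -0.10 over all genes. With median-of-ratios scaling 5 were higher and 4 lower, where 2867 and 2579 of the 13163 genes tested passed as higher and lower. *NF2*, the merlin tumour suppressor that recruits LATS kinases to the membrane, rose from 78.1 ± 7.08 to 177 ± 30.1 TPM (SD, n = 3), with a log2 fold change of 1.16 (adjusted p = 0.000542 in limma). *WWC1*, the KIBRA scaffold that acts with merlin, rose by 1.28 on the log2 scale from a low level, 0.551 ± 0.212 to 2.02 ± 0.189 TPM (adjusted p = 0.000724 in limma). Of the genes that fell, *FAT4*, an atypical cadherin, had a log2 fold change of -1.18 (adjusted p = 0.000154 in limma), and *SAV1*, the adaptor of the MST kinases, one of -0.62 (adjusted p = 0.000683 in limma). Members of the cascade thus moved in both directions.

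Among cytoplasmic partners of YAP and TAZ, 10 of 11 listed genes were tested and 4 passed, all lower, against 30.5% of all genes tested, and the median log2 fold change of -0.09 lay at that of all genes (-0.10). *AMOT*, the founding angiomotin, fell by 0.69 on the log2 scale, whereas its relative *AMOTL2* was higher (adjusted p = 0.0077 for *AMOT* in limma). *AMOT* was near the 0.5 TPM filter, at 1.22 ± 0.127 TPM (shEV) and 0.567 ± 0.0696 TPM (shPAX2, SD, n = 3). Its log2 fold change ran from -1.06 with voom to -0.47 with quantile normalization. *LIMD1*, a relative of *AJUBA*, had a log2 fold change of -0.40 (adjusted p = 0.00157 in limma). *BTRC*, part of the ubiquitin ligase that degrades YAP, had a smaller value of -0.25 (adjusted p = 0.0214 in limma). With median-of-ratios scaling it stood at -0.14 (adjusted p = 0.132) and with quantile normalization at -0.16 (adjusted p = 0.0981). Its adjusted p was 0.0659 without shEV replicate 3, 0.0519 without shPAX2 replicate 1 and 0.0588 without shPAX2 replicate 2. The list's count of genes past the test was 2 with median-of-ratios scaling, with quantile normalization and without shEV replicate 3, shPAX2 replicate 1 or shPAX2 replicate 2. In the same order, 2579, 2489, 3113, 3845 and 2861 of the 13163 genes tested passed as lower.

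Other published YAP-TEAD targets were mixed. Of 26 such genes 18 were tested, of which 2 rose and 8 fell, against 12.2% and 30.5% of all genes tested, and the median log2 fold change was -0.23, against -0.10 over all genes. *ARHGAP29*, a GTPase-activating protein, fell from 14.8 ± 0.906 to 4.78 ± 2.01 TPM (SD, n = 3), with a log2 fold change of -1.62 (adjusted p = 0.0146 in limma). *GAS6*, the ligand of the AXL receptor, had a log2 fold change of -1.13 (adjusted p = 0.0157 in limma), which was 0.0663 without shPAX2 replicate 2 and 0.0579 without shPAX2 replicate 3, and *AXL* itself was under 0.5 TPM in every library. *CRIM1*, a transmembrane BMP-binding protein, had a log2 fold change of 0.94 with an adjusted p of 0.0492 in limma, which stood at 0.0935 with a replicate block, at 0.1 to 0.135 without any 1 of shEV replicates 1 to 3 and shPAX2 replicates 2 and 3, and at 3.4e-05 without shPAX2 replicate 1. *FOXF2*, a forkhead factor, rose by 0.75 on the log2 scale (adjusted p = 0.00644 in limma). Of the other CCN genes in a list of 4, *WISP1* was the only one in the table, at 1 read or fewer in each library, so *CTGF* and *CYR61* were the only CCN genes that could be compared.

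Some targets shared the split between shPAX2 libraries seen in *CYR61*. *THBS1* and *IGFBP3* were chosen for this after their values were seen. *THBS1*, which encodes the matricellular protein thrombospondin 1, stood at 30.3, 19.8 and 16.3 TPM in the shEV libraries and at 37.9, 139 and 146 TPM in the shPAX2 libraries. *IGFBP3*, a secreted IGF-binding protein, stood at 0.850, 0.215 and 0.421 TPM in shEV and at 0.248, 6.74 and 6.89 TPM in shPAX2. In both genes shPAX2 replicates 2 and 3 were far above replicate 1. Neither passed the test with all libraries (adjusted p = 0.0603 for *THBS1* and 0.237 for *IGFBP3* in limma).

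**Figure D2:**
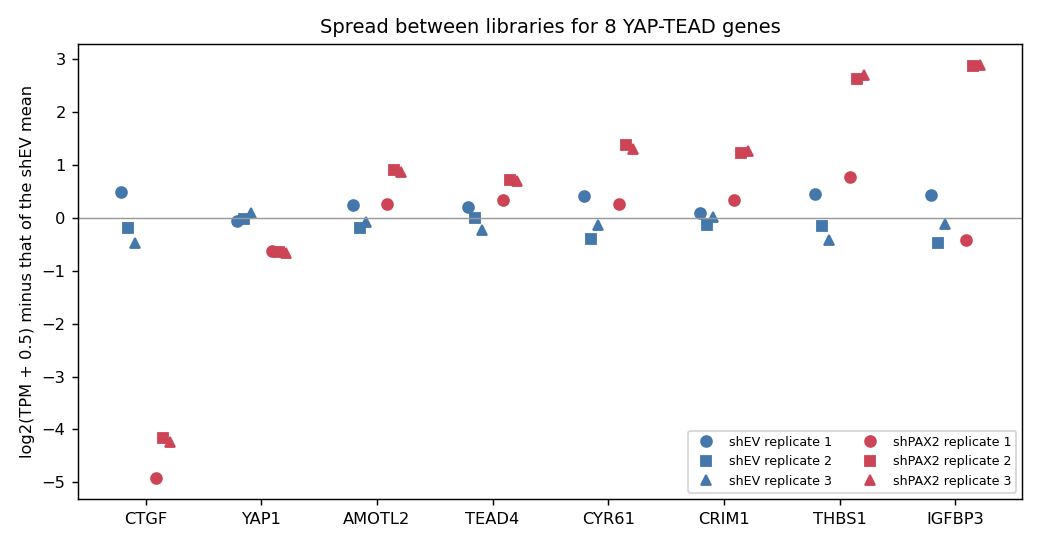
Level of 8 genes in every library on the log2(TPM + 0.5) scale, minus the mean of the shEV libraries for that gene, with 1 symbol per replicate number (shEV blue, shPAX2 red). In *CYR61*, *AMOTL2*, *TEAD4*, *CRIM1*, *THBS1* and *IGFBP3* replicates 2 and 3 of shPAX2 lie close together and above shPAX2 replicate 1. The same holds for *CTGF*, which is lower in shPAX2, whereas the shPAX2 libraries of *YAP1* lie on top of each other.

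Cytoskeletal genes driven by SRF and its coactivator MRTF, which share targets such as *CYR61* and *ANKRD1* with YAP, were higher in shPAX2. Of 15 listed genes 11 were tested, all with a positive log2 fold change and a median of 0.63, and 9 passed the test, against 12.2% of all genes tested that were higher. *ACTA2*, smooth muscle actin, rose from 65.1 ± 10.6 to 296 ± 66.0 TPM (SD, n = 3), with a log2 fold change of 2.16 (adjusted p = 0.000824 in limma). *TPM1*, a tropomyosin, had a log2 fold change of 1.74 (adjusted p = 0.00478 in limma). The smallest passing values were 0.30 for *CNN2* (calponin) and 0.31 for *FLNA* (filamin A), with adjusted p of 0.00951 and 0.00342 in limma. With median-of-ratios scaling the same 11 genes were all positive. In 10 of these 11 genes shPAX2 replicate 1 was the lowest shPAX2 library, against 43% of all genes tested and 9 of the 10 members. It was also lowest in 10 of 17 tested Hippo kinase genes, 8 of 10 YAP-TAZ partners and 12 of 18 other YAP-TEAD targets. Among the 3 tested TEAD and VGLL genes it was lowest in 1.

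**Figure D3:**
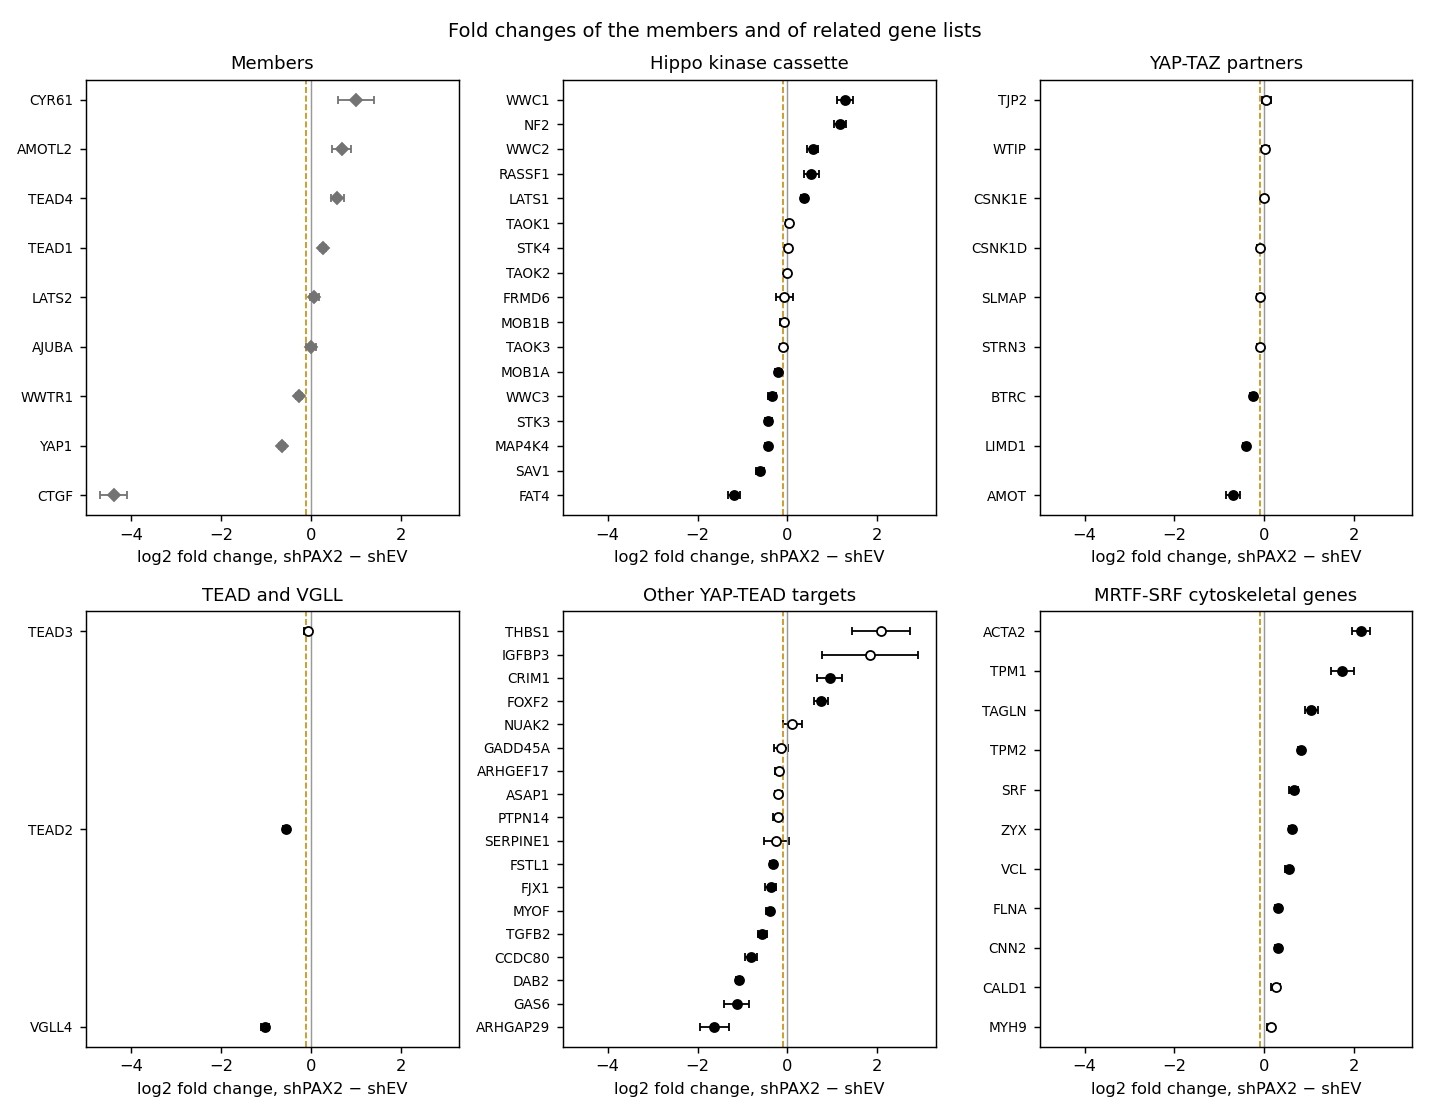
Log2 fold change (shPAX2 minus shEV, on the log2(TPM + 0.5) scale) with its SE for the members, drawn as grey diamonds without a test, and for the genes of each list other than 1 YAP-TAZ partner, drawn as filled circles where the adjusted p was under 0.05 and open circles where it was not. The dashed line is the median of all genes at -0.10. *CTGF* lies below every gene of the lists, and the 11 tested SRF genes all lie above 0.

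The pattern of *CTGF* over the 6 libraries was compared with that of 10519 tested genes with a mean of at least 5 TPM, as a description. By Pearson correlation of log2(TPM + 0.5), the 5 most alike were *CBL*, *KIAA1551*, *JUNB*, *RNF31* and *DOK4*, each at 0.998. A total of 74 genes reached 0.99, and with 6 points that share 2 groups such values mostly follow the step between the groups. *JUNB*, a subunit of AP-1, stood at 34.2, 29.8 and 29.3 TPM in the shEV libraries and at 13.5, 16.5 and 15.6 TPM in the shPAX2 libraries. *CBL* differed far less in size, with a log2 fold change of -0.19. Of the members, *YAP1* (0.958) and *WWTR1* (0.930) were positively correlated with *CTGF*, and *CYR61* (-0.652), *AMOTL2* (-0.720), *TEAD4* (-0.766) and *TEAD1* (-0.861) negatively. *AJUBA* stood at 0.140 and *LATS2* at -0.144. These values mostly restate the differences between the groups, which were known when the members were chosen.

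Genes around *CTGF* and *CYR61* were examined to see whether the differences extended to their neighbours. Within 1 Mb of *CTGF*, 8 of 11 listed genes were tested, 5 passed as higher and 1 as lower, against 12.2% and 30.5% of all genes tested, and their median log2 fold change was 0.32. Chromosome 6 as a whole had a median of 0.39 over 635 tested genes, against -0.09 on chromosome 1, and the single neighbours ran from -2.77 to 1.43. The 1 lower neighbour, *ENPP1*, an ectonucleotide pyrophosphatase whose start site lies 143 kb from that of *CTGF*, was chosen for description after its values were seen. It stood at 2.68, 3.04 and 4.11 TPM in the shEV libraries and at 0.0263, 0.0598 and 0.0551 TPM in the shPAX2 libraries, where 3, 6 and 4 reads remained. The *ENPP1* means were 3.28 ± 0.743 TPM (shEV) and 0.0471 ± 0.0181 TPM (shPAX2, SD, n = 3). Its log2 fold change was -2.77 (SE 0.18, adjusted p = 9.59e-06 in limma), and it ran from -6.07 to -2.02 over all settings. At so low a level the 0.5 TPM added before the logarithm understates the change. The values of -2.77 for *ENPP1* and -4.38 for *CTGF* therefore do not rank the 2 genes by size of change. *MED23* and *STX7*, on either side of this pair, likewise chosen after their values were seen, had log2 fold changes of 0.27 and 0.26 (adjusted p = 0.00448 and 0.0282 in limma), and the adjusted p of *STX7* was up to 0.0964 with other settings.

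Within 1 Mb of *CYR61*, 9 of 14 listed genes were tested, 1 passed as higher and 3 as lower, against the same 12.2% and 30.5% of all genes, and their median log2 fold change was -0.13. The higher one was its nearest neighbour, *DDAH1*, which degrades asymmetric dimethylarginine. Its outermost annotated start lies 2.40 kb from that of *CYR61*, and values per gene do not show which start was used. *DDAH1* was chosen for description after its values were seen. It stood at 6.69, 5.07 and 6.18 TPM in the shEV libraries and at 9.56, 14.8 and 15.9 TPM in the shPAX2 libraries, with replicate 1 again nearest to shEV. Its log2 fold change was 1.08 (SE 0.20, adjusted p = 0.00479 in limma).

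**Figure D4:**
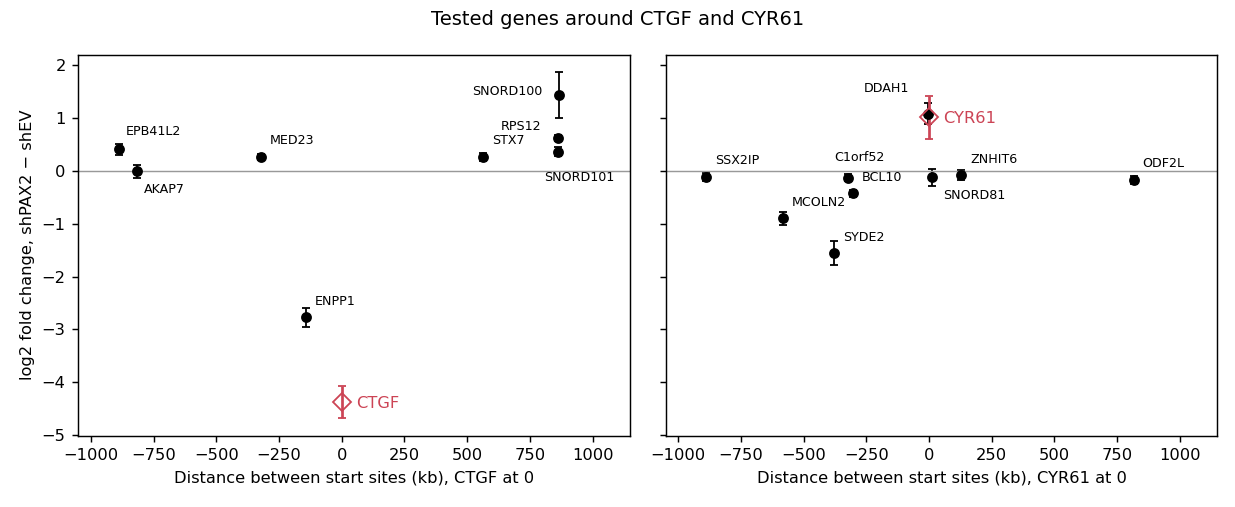
Log2 fold change (shPAX2 minus shEV) with its SE of *CTGF*, *CYR61* (open diamonds) and the tested genes within 1 Mb of each (black circles), against the distance in kb between start sites. *ENPP1* is the only tested neighbour of *CTGF* far below 0, at -2.77, a value that this scale understates at its low level. *DDAH1* is the only tested neighbour of *CYR61* that passed as higher, at 1.08.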

How the data were processed

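The authors deposited TPM values for 17471 genes named by symbol, 1 column for each of the 6 libraries. Per the labels the libraries were stranded total RNA libraries. The submitters' processing notes name bcl2fastq, STAR, Subread, featureCounts and edgeR, with hg19 as the build. The study's methods name STAR and RSEM for another cell line, and the versions used for these libraries are not given in the sources used here. Ratios between libraries within a gene were ratios of whole numbers in 100% of genes (tolerance 1e-10), so whole reads were recovered, up to a factor common to a gene's libraries that can be missed in some genes. These reads gave the depths and the intervals. Depth sets the precision of low genes such as *CTGF* and *ANKRD1*, and intervals cover counting error only.

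Genes with at least 0.5 TPM in at least 3 libraries (13163) were tested with limma 3.58.1 in R 4.3.3 on log2(TPM + 0.5), with a trended, robust eBayes step. The 3 shPAX2 libraries were set against the 3 shEV libraries, two-sided and without covariates, and p-values were adjusted by Benjamini-Hochberg over every gene in the fit. This scale understates the change of low genes. The fit was tested on simulated data, where unchanged genes made up more of the calls than the nominal rate, so calls near the threshold are less certain than their adjusted p. The members and lists were chosen with earlier results of these data known. The named genes were the 10 members, *PAX2*, in each list the 2 highest and 2 lowest fold changes among genes past an adjusted p of 0.05, and the 5 genes most correlated with *CTGF*; genes given as chosen after their values were seen are exceptions, as are *AXL*, *TEAD3* and *WISP1* (list genes outside the rule), *COL1A2*, *COL3A1* and the other cell type markers. Also, 1 gene that the rule names, a partner of YAP and TAZ counted in its list, is not reported here. Gene positions came from GENCODE on GRCh37, which matched 16562 of the 17471 symbols, and promoters from RefSeq on GRCh38.p14. Start sites in distances between neighbours were the outer ends of the gene records. The alternatives were other pseudocounts, filters and scalings, voom on the recovered reads, a replicate block, and leaving out each library.

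The replicate numbers did not pair the libraries. Same-numbered libraries had correlations of their deviations from the group means of -0.0523, 0.0815 and 0.0014.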

Additional observations from a re-analysis of the deposited data

How the results depend on the processing

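*PAX2* was lower in shPAX2 under every alternative run, from -1.87 with voom to -1.20 with a pseudocount of 1. The count of members past an adjusted p of 0.05, 6 with all libraries, ran from 3 without shPAX2 replicate 3 to 7 without shPAX2 replicate 1. It was 4 with the replicate block. In the same fits and order, 5629, 4565, 5722 and 5112 of the 13163 genes tested passed. Nothing is read from the member count, since the contrast chose the members. *AMOTL2* and *TEAD4* dropped out with the block, *WWTR1* with median-of-ratios scaling and quantile normalization, and at least 1 of *AMOTL2*, *TEAD1* and *TEAD4* without any 1 library other than shPAX2 replicate 1, while *CYR61* came in with voom and without shPAX2 replicate 1. The YAP-TAZ partner count, 4 with all libraries, was 2 with median-of-ratios scaling and 2 with quantile normalization, and ran from 2 to 4 over the fits that leave out 1 library. Of the 13163 genes tested, 2861 to 3845 passed as lower in the fits that leave out 1 library. Genes past both thresholds numbered 598, 566 to 679 without 1 library, 588 with the replicate block, 769 and 440 with pseudocounts of 0.1 and 1, and 799 with voom. Genes past the adjusted p alone were 1612 higher and 4017 lower, against 2867 and 2579 with median-of-ratios scaling and 2367 and 2489 with quantile normalization, and 1045 were higher without shPAX2 replicate 2. No value changed sign as a call. The replicate numbers are shared only in name, and the block moved the count past the adjusted p alone from 5629 to 5112. The cause of these shifts was not tested. Fewer than 20 reads in each shPAX2 library stand behind *CTGF*, and 15 or fewer in every library behind *ANKRD1*, so the size of the first and the direction of the second are limited by depth. Transcript levels in 1 line with 1 hairpin say nothing of YAP or TAZ protein.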
